A study of Homo sapiens with 6 samples.

Results

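The 42 genes described here carry glucose into the cell, break it down to lactate, control that flow, or sense and answer low oxygen. They were taken by symbol from the deposited table, which lists 19960 genes, and all 42 symbols were found. The samples are RNA-seq libraries of MKN28, an established human gastric cancer cell line that registers of misidentified lines list as a derivative of another gastric line. In 3 libraries the cells stably expressed a plasmid with a scrambled short hairpin RNA (shSCR, the control), and in 3 they stably expressed a hairpin against LTBP1 (shLTBP1), the gene of a latent TGF-beta binding protein of the extracellular matrix. Both groups were grown in RPMI medium with fetal bovine serum, HEPES buffer and antibiotics in air with added CO2. The labels give no oxygen level and no hypoxic treatment. How many hairpin sequences, transductions or clones stand behind each stable line is not given in the sources used here. The labels name 3 libraries a group without saying that they came from separate cultures, so each p-value rests on the variation from library to library, which may be technical only.

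Glucose enters through transporters of the SLC2A family, is trapped as glucose 6-phosphate by hexokinase, and is committed to breakdown by phosphofructokinase. The lower enzymes turn it into pyruvate, which lactate dehydrogenase reduces to lactate for export by monocarboxylate transporters, or which the pyruvate dehydrogenase complex passes to the mitochondria unless pyruvate dehydrogenase kinases switch that complex off. Hypoxia-inducible factor (HIF) pairs an oxygen-sensitive alpha subunit (HIF1A or EPAS1) with ARNT; prolyl hydroxylases of the EGLN family mark the alpha subunit for breakdown when oxygen is present, so HIF is controlled largely at the protein level. Many genes of glycolysis are HIF targets, and tumour cells often run the pathway in the presence of oxygen.

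The deposited values are read counts that the authors normalized, called normalized counts here; library sums ran from 30479879 to 30941103. LTBP1 had normalized counts of 977, 964 and 1011 in shSCR and 59.02, 66.7 and 49.02 in shLTBP1, and 5.92% of the control mean remained (exact two-sided permutation p = 0.1, the smallest that 3 against 3 allows). LTBP1 lies on chromosome 2, where many genes were lower. Its log2 fold change was -4.07, and -3.48 relative to its neighbours. All 7 epithelial markers examined were present, the lowest at 9673. They moved both ways: CLDN4 and KRT19 rose (log2 fold changes 0.27 and 0.22), KRT18, CDH1 and EPCAM fell (-0.25, -0.34 and -1.12, the last on chromosome 2 and at -0.55 relative to its neighbours), and KRT8 and CLDN7 did not pass. Their sum was 334632 to 355279 in shSCR and 298419.7 to 322647 in shLTBP1. Of 8 fibroblast markers 2 reached the mean of 10 needed for a test. COL1A1 fell (log2 fold change -0.597, limma adjusted p = 0.0017). LUM passed as higher (log2 fold change 5.46, limma adjusted p = 1.31e-05). It is listed at 0 in all 3 shSCR libraries and at 41.5, 51.99 and 36.6 in shLTBP1. The summed fibroblast list, most of it COL1A1, was at 1095 to 1342 in shSCR and 706 to 931 in shLTBP1. THY1 is listed at 0 throughout, and PDGFRB did not exceed 0.715. shSCR replicate 3 stood apart in haemoglobin RNA, with HBA1 at 803 against at most 11.99 elsewhere, and lifted the summed list of 8 blood cell markers to 1324, against 352 and 393 in the other shSCR libraries and 628 to 739.97 in shLTBP1. CD68, a lysosomal protein used as a macrophage marker, made up most of the shLTBP1 sums and was the only blood marker that passed, with 339.99, 376 and 382 in shSCR against 689, 713 and 605 in shLTBP1 (log2 fold change 0.87, limma adjusted p = 2.87e-05). PTPRC did not exceed 0.738. Of 5 endothelial markers only VWF was tested, at 23.4 to 40.8 (limma adjusted p = 0.15), and CLDN5 is listed at 0 throughout. Without shSCR replicate 3, 9 members were higher and 14 lower, against 10 and 16 with it. Over all tested genes 5904 of 12786 passed without that library, against 6788 of 12789 with it. The part of the other markers in the results was not tested. In a bulk sample a shift in the mixture of cells and a shift in RNA per cell cannot be told apart.

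The knockdown cells held more RNA of 1 glucose transporter and 1 lactate exporter, and less RNA of most enzymes in between. The transporter SLC2A1 rose 2.25-fold and the lactate exporter SLC16A3 2.05-fold, while their relatives SLC2A3 and SLC16A1 did not pass. Of the 17 enzymes that take glucose to lactate 11 fell, the least of them ALDOA, which fell by 7.63%, and the most PFKP, which fell by 27.6%, and 1, the minor aldolase ALDOC, rose. PFKL and PGK1 were among the enzymes that fell, but they were not lower relative to neighbouring genes (0.051 and 0.15). Genes of the HIF pathway moved in both directions. Of the 42 genes 37 had a mean of at least 10 over the 6 libraries and were tested with limma on log2(value + 1), the scale of all fold changes in log2 units here; 10 were higher and 16 lower in shLTBP1 at an adjusted p under 0.05, and 11 did not pass. Over all 12789 tested genes 53.1% passed, 26.3% higher and 26.8% lower, so that the share of the tested members that passed, 70.3%, has to be read against a background in which most genes passed. Among all tested genes with a mean of at least 1000, an abundance at which most of the pathway's enzymes lie, 58.3% passed, 27.2% higher and 31.1% lower. A change of at least 2-fold (1 on the log2 scale) together with the call was seen as a rise in 3 of the 37 tested members. These were SLC2A1, SLC16A3 and CA9, and 4.54% of all tested genes rose that far. Among the members 1 fell that far (PDK3), against 4.39% of all tested genes. CA9, at 11.1 to 61.6, kept its call in 8 of 16 alternative fits. Relative to neighbouring genes SLC2A1 was at 1.12, SLC16A3 at 0.81, CA9 at 0.72 and PDK3 at -1.27. The median log2 fold change was -0.081 over the tested members and 0.0038 over all tested genes. For 29 of the 37 the groups' values were fully separate, 11 higher and 18 lower in shLTBP1; of all tested genes 60.8% were separate, 30.2% higher and 30.6% lower.

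**Figure D1:**
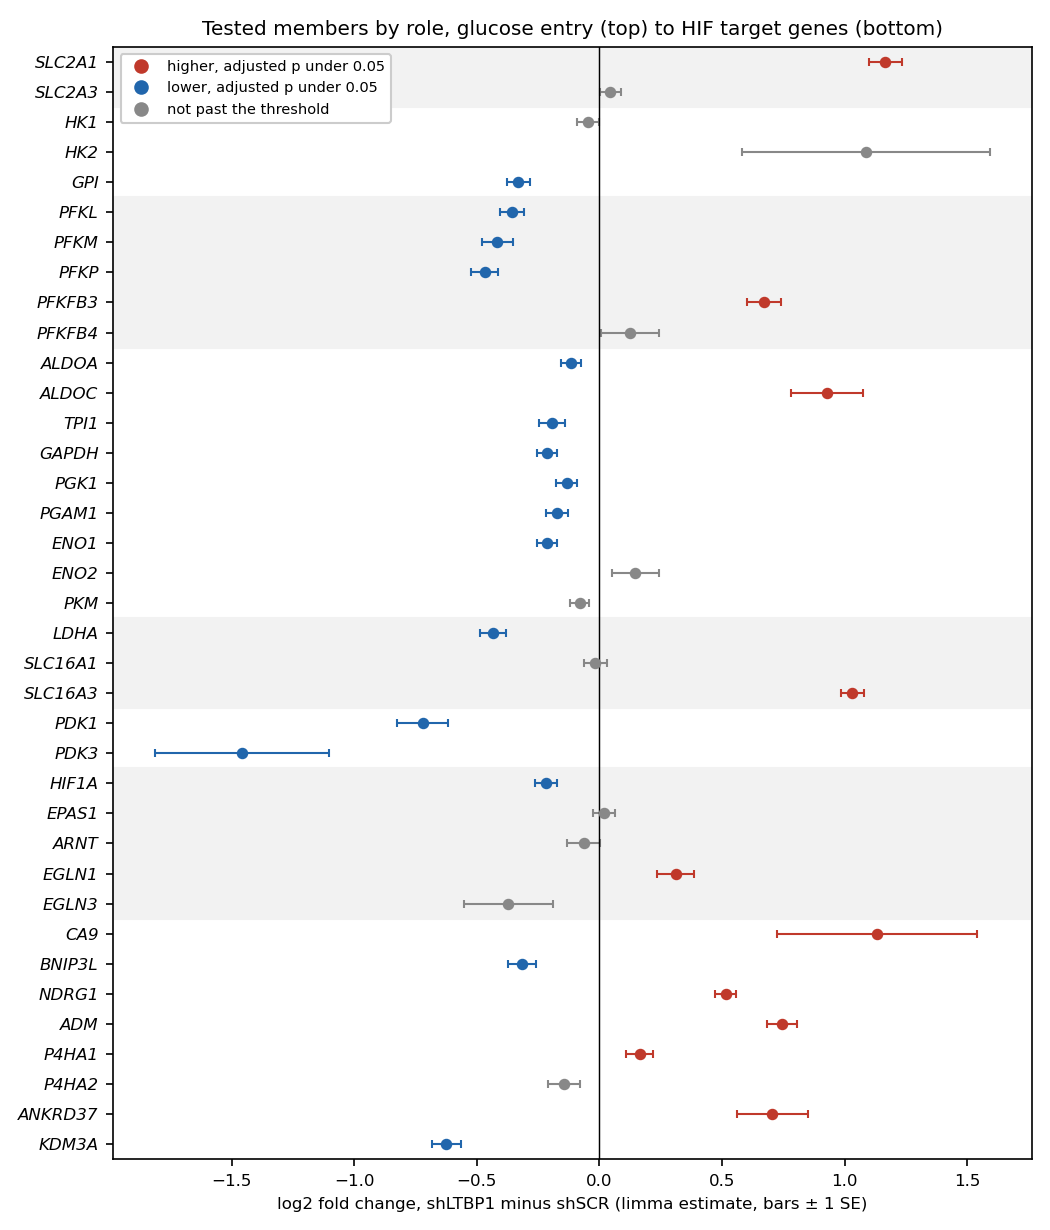
Log2 fold change (shLTBP1 minus shSCR, horizontal axis) of the 37 tested genes, ordered from glucose transporters at the top to HIF target genes at the bottom, with bars of 1 standard error from limma; shading separates the roles. Red points are higher and blue points lower at a limma adjusted p under 0.05, and grey points did not pass. SLC2A1 and SLC16A3 lie above 1, while most of the enzymes between them lie below 0.

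Because many of these genes are known HIF targets, the letters of the hypoxia response element core were looked for upstream of their starts. The 250 bases before each RefSeq transcript start (GRCh38.p14) were searched on both strands for ACGTG and for GCGTG, and 38 of the 42 genes matched an entry. ACGTG stood in at least 1 window of 21 of these 38 genes (55.3%), against 21.7% of all 27305 genes with an entry. No limit to coding or expressed genes was set on these 27305. A gene with several windows has more chances of a match. Counted by window, it stood in 24 of 67 windows of the members (35.8%) and in 18.5% of all 35116 windows. GCGTG was in 23 of the 67 windows (34.3%) and in 32.2% of all windows. By gene it was in 20 of the 38 (52.6%), against 36.2% of all genes with an entry. The E-box CACGTG, which contains ACGTG on either strand, was in 8 of the 67 windows (11.9%) and in 6.34% of all windows. Genes with ACGTG were found on both sides of the comparison: 7 of 9 genes that rose and have an entry, 10 of 15 that fell and 2 of 9 tested genes that did not pass. A match describes letters in a window; no binding was measured here. The windows of 4 genes that rose (SLC2A1, SLC16A3, ANKRD37 and ALDOC) and 3 that fell (LDHA, PDK1 and PDK3) are printed 5′ to 3′ on the strand of the gene, ending at the base before the start, with ACGTG and GCGTG on either strand in capitals (on the other strand they read CACGT and CACGC). They lie at chr1:42958869-42959118 on the minus strand, chr17:82228792-82229041 on the plus strand, chr4:185396591-185396840 on the plus strand, chr17:28576896-28577145 on the minus strand, chr11:18394313-18394562 on the plus strand, chr2:172555840-172556089 on the plus strand and chrX:24465036-24465285 on the plus strand; for SLC16A3, LDHA and PDK1, which have several starts, the window shown is one that holds ACGTG.
SLC2A1: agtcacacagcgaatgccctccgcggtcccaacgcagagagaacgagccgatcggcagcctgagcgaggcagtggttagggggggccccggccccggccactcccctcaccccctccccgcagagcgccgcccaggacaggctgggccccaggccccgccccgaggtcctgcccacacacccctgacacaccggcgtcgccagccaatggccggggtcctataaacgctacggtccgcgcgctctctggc
SLC16A3: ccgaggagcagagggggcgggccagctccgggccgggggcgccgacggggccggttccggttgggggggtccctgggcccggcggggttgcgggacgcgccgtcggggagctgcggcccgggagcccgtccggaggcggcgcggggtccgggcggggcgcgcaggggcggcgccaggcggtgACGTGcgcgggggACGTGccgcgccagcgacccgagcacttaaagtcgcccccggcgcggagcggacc
ANKRD37: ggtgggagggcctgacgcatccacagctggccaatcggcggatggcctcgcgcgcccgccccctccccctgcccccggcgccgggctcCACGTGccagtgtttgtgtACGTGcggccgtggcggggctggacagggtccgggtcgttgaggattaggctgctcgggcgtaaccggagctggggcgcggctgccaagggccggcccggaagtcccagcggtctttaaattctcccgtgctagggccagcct
ALDOC: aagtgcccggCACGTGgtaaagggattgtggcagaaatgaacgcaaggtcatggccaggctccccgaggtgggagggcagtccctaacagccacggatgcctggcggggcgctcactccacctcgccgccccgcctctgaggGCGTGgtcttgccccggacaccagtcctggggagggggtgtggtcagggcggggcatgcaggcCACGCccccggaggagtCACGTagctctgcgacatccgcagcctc
LDHA: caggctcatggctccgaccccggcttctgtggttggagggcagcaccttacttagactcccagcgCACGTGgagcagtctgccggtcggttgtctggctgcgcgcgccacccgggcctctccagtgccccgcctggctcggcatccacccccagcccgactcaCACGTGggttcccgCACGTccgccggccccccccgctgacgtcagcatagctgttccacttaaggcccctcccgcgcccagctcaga
PDK1: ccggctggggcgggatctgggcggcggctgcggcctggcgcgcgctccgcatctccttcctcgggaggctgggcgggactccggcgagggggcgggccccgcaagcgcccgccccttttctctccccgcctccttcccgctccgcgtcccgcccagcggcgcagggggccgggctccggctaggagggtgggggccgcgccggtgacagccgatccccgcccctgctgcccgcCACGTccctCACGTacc
PDK3: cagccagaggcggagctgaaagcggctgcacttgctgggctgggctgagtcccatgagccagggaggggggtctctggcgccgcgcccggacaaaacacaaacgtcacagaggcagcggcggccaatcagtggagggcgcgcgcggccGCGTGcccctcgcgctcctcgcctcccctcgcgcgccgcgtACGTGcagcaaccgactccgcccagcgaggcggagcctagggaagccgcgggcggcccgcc
The SLC2A1 window held neither core. That of SLC16A3 held ACGTG at -68 and -55 from the start, counted to the first base of each match, and that of LDHA held 5 matches, 4 of them as 2 copies of CACGTG, where both strands match.

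Of the 2 glucose transporters among the members, SLC2A1 rose and SLC2A3 did not pass. SLC2A1 (ENSG00000117394, hg38 chromosome 1 from 42925375 to 42959176, minus strand) encodes GLUT1, the transporter of basal glucose uptake in most cells. It had normalized counts of 45384, 50619 and 51468 in shSCR against 116374, 114913 and 100117 in shLTBP1. The lowest shLTBP1 library lay far above the highest shSCR library. The means were 49157 ± 3294 and 110468 ± 8994 (SD, n = 3 each), a log2 fold change of 1.17 (standard error 0.068, limma adjusted p = 7.35e-07). By normalized count it stood at rank 31 among all genes in shSCR and at rank 7 in shLTBP1, and of the 500 genes with a mean of at least 10000 only 6 had a larger rise. SLC2A3, which encodes the high-affinity transporter GLUT3, had values of 41708, 43145 and 41434 in shSCR against 42883, 41882 and 45623 in shLTBP1. These groups overlapped, and the log2 fold change was 0.045 (limma adjusted p = 0.416); it passed when trends with GC content and length were removed (0.096, limma adjusted p = 0.0446). SLC2A3 has a close paralog, SLC2A14, with which reads can be shared; SLC2A14 was at 37.7 to 71.9. The 2 transporters together made up 0.296% ± 0.0123 of the summed normalized counts in shSCR and 0.504% ± 0.0243 in shLTBP1 (SD, n = 3 each).

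**Figure D2:**
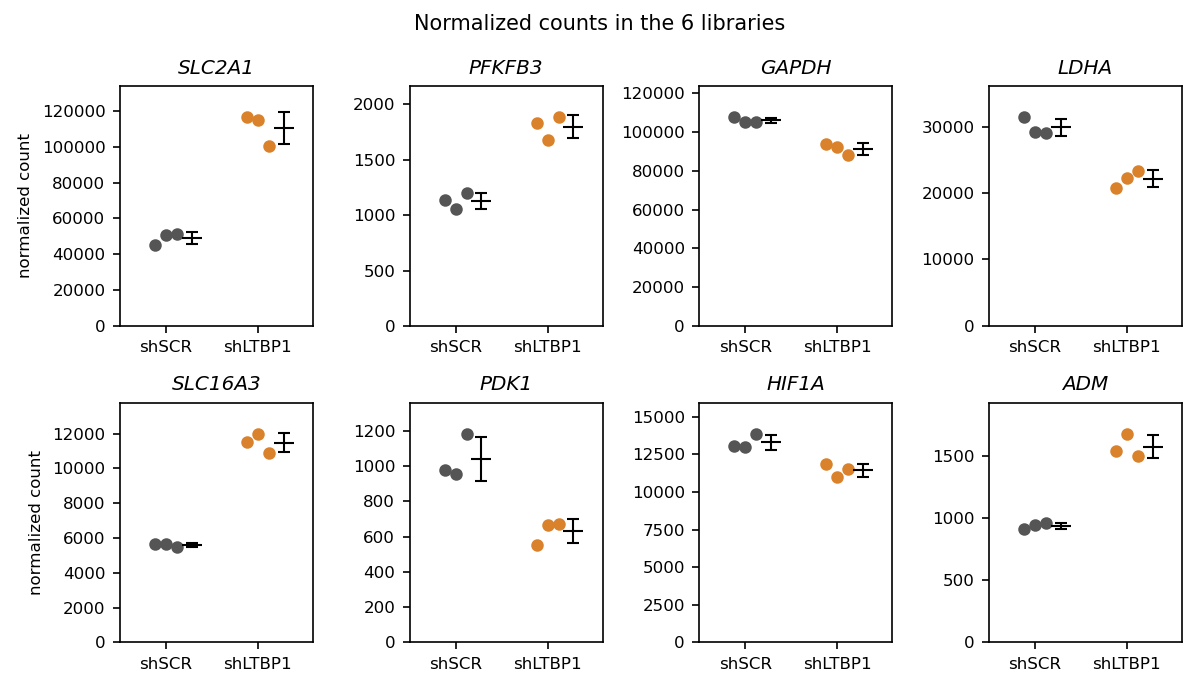
Normalized count (vertical axes, from 0) of 8 genes in the 3 shSCR (grey) and 3 shLTBP1 (orange) libraries, with the mean and SD of each group beside the points. SLC2A1, PFKFB3, SLC16A3 and ADM lie higher in all 3 shLTBP1 libraries, and GAPDH, LDHA, PDK1 and HIF1A lie lower.

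RNA of the steps that trap and commit glucose fell at isomerase and phosphofructokinase, while the regulator PFKFB3 rose. HK1, the constitutive hexokinase, had values of 10347 to 11302 in shSCR and 10386 to 10695 in shLTBP1 (log2 fold change -0.046, limma adjusted p = 0.415). HK2, the inducible hexokinase often raised in tumours, was close to absent: its values were 7.89, 7.77 and 8.41 in shSCR against 13.3, 41.2 and 10.7 in shLTBP1. shLTBP1 replicate 2 carried most of its RNA in that group, and the gene did not pass (log2 fold change 1.09, standard error 0.51, limma adjusted p = 0.0962; 0.0475 without shLTBP1 replicate 3, while without shLTBP1 replicate 2 its mean was below the filter). GPI, which isomerizes the phosphorylated glucose, fell from 14951 ± 775 to 11873 ± 200.2 (SD, n = 3 each; log2 fold change -0.33, limma adjusted p = 0.000248). All 3 phosphofructokinase subunit genes fell: the liver type PFKL fell by 21.9%, the muscle type PFKM fell by 24.9% and the platelet type PFKP fell by 27.6%, with log2 fold changes of -0.36, -0.42 and -0.47 (largest limma adjusted p = 0.000336). In none of the 3 did the groups overlap. Of all tested genes 26.8% fell past the threshold, and 30.6% were fully separate and lower. PFKL lies on chromosome 21 among genes that were lower too, and relative to its neighbours it was at 0.051 (limma adjusted p = 0.387). PFKFB3 and PFKFB4 make and break the sugar bisphosphate that activates phosphofructokinase, and PFKFB3 favours its synthesis. PFKFB3 had normalized counts of 1135, 1052 and 1202 in shSCR against 1828, 1682 and 1884 in shLTBP1. Every shLTBP1 value lay above every shSCR value, with a log2 fold change of 0.67 (standard error 0.069, limma adjusted p = 2.87e-05). PFKFB4 was at 215 ± 23.99 and 235 ± 19.4 (SD over 3 libraries each; limma adjusted p = 0.393).

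The lower pathway, from aldolase to pyruvate kinase, is among the most abundant RNA of these cells, and most of its genes fell by small amounts. Its 9 genes summed to 1.401% ± 0.0101 of all normalized counts in shSCR and 1.27% ± 0.0216 in shLTBP1 (SD, n = 3 each). Of these 9 genes 6 fell, 1 rose and 2 did not pass, where 26.8% of all tested genes fell and 26.3% rose. GAPDH, the dehydrogenase that is often used as a reference gene, had values of 107663, 105398 and 105010.2 in shSCR against 94019, 92505 and 87991 in shLTBP1. The groups did not overlap, and GAPDH fell by 13.7% (log2 fold change -0.21, standard error 0.041, limma adjusted p = 0.00183). The enolase ENO1 went from 114604 ± 2567 to 98859 ± 1715 and the triose phosphate isomerase TPI1 from 15599 ± 107 to 13663 ± 1001 (SD over 3 libraries each; limma adjusted p = 0.00136 and 0.0126). The phosphoglycerate mutase PGAM1 fell by 11.3% (limma adjusted p = 0.00807). The aldolase ALDOA and the phosphoglycerate kinase PGK1 passed narrowly, at -0.12 and -0.13 (limma adjusted p = 0.0414 and 0.0262). The ALDOA call was lost on leaving out any single shSCR library, shLTBP1 replicate 1 or shLTBP1 replicate 3 (limma adjusted p = 0.0769 to 0.126), as it was under the replicate block (limma adjusted p = 0.0703). The PGK1 call was lost on leaving out any single shSCR library or shLTBP1 replicate 1 (limma adjusted p = 0.0633 to 0.0812). PKM, the pyruvate kinase of most tissues, was at 104694 ± 1331 and 98983 ± 1546 and did not pass, although the groups did not overlap (limma adjusted p = 0.0988). It passed as lower relative to neighbouring genes (limma adjusted p = 0.0285) and with GC content and length trends removed (limma adjusted p = 0.00105). None of the enzyme genes that fell changed sign under upper quartile scaling or quantile normalization, but upper quartile scaling ended the ALDOA call (limma adjusted p = 0.0937) and quantile normalization that of PGK1 (limma adjusted p = 0.124). Moderation without the trend ended the calls of TPI1, ALDOA and PGK1 (limma adjusted p = 0.0509, 0.0997 and 0.0726). Testing with no filter on low values ended that of ALDOA (limma adjusted p = 0.105), and removal of the GC content and length trends that of PGK1 (limma adjusted p = 0.298). PGK1 reversed relative to neighbouring genes, to 0.15 (limma adjusted p = 0.0209). Of the brain-type isoforms ALDOC rose and ENO2 did not pass. ALDOC, a minor aldolase, had values of 122, 85.3 and 96.6 in shSCR against 189.7, 196 and 189 in shLTBP1. All 3 shLTBP1 libraries lay above the shSCR libraries and close to each other, with a log2 fold change of 0.93 (standard error 0.15, limma adjusted p = 0.00054). ENO2, the neuronal enolase, was at 563 ± 66.8 and 622 ± 42.3 (limma adjusted p = 0.231). Several of these enzymes have processed pseudogenes, so the division of reads between near-identical copies is uncertain.

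At the end of the pathway LDHA RNA fell and SLC16A3 RNA rose. LDHA encodes the lactate dehydrogenase subunit that favours the reduction of pyruvate. Its normalized counts were 31400.2, 29261 and 28981 in shSCR against 20789, 22249 and 23341 in shLTBP1. The groups did not overlap, and LDHA fell by 25.95% (log2 fold change -0.43, standard error 0.053, limma adjusted p = 9.07e-05). LDHB, the subunit that favours the oxidation of lactate, did not exceed 4.62 in any library and was listed at 0 in 2 of them. SLC16A3 (ENSG00000141526, hg38 chromosome 17 from 82228397 to 82261129, plus strand) encodes MCT4, a transporter suited to lactate export. It had normalized counts of 5638, 5682 and 5495 in shSCR against 11544, 11989.95 and 10886 in shLTBP1. The lowest shLTBP1 library was far above the highest shSCR library, and the log2 fold change was 1.03 (standard error 0.047, limma adjusted p = 1.54e-07). SLC16A1, which encodes MCT1, a transporter that works in both directions, was at 17100.2 ± 868 and 16889 ± 353 (SD, n = 3 each; log2 fold change -0.017, limma adjusted p = 0.779).

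Of the 3 pyruvate dehydrogenase kinases among the members PDK1 and PDK3 fell, and PDK4 had no value above 0. PDK1 had normalized counts of 979, 955 and 1183 in shSCR against 551, 664 and 673 in shLTBP1. The groups did not overlap, and PDK1 fell by 39.4% (log2 fold change -0.72, standard error 0.105, limma adjusted p = 0.000287); it lies on chromosome 2, where neighbouring genes were lower too. PDK3, expressed at a low level, had values of 30.9, 49.1 and 61.1 in shSCR against 10.5, 16.7 and 22.4 in shLTBP1. The highest shLTBP1 value lay below the lowest shSCR value, with a log2 fold change of -1.46 (standard error 0.35, limma adjusted p = 0.00644). PDK4 is listed at 0 in all 6 libraries. PDK2, which belongs to the wider pathway list described further on, rose from 485 ± 21.98 to 624 ± 74.1 (SD over 3 libraries each; limma adjusted p = 0.0114). PDP1, the phosphatase that reverses the action of the kinases, fell from 2434 ± 93.6 to 1168 ± 54.2 (limma adjusted p = 5.24e-07).

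Of the HIF subunits, HIF1A RNA fell slightly and EPAS1 and ARNT did not pass. HIF1A had normalized counts of 13046, 13008 and 13876 in shSCR against 11842, 10986 and 11511 in shLTBP1. The groups did not overlap, and it fell by 14.00% (log2 fold change -0.22, standard error 0.046, limma adjusted p = 0.00309). EPAS1, which encodes HIF-2 alpha, had values of 13276, 13029 and 13689 in shSCR against 14118, 12927 and 13458 in shLTBP1. Its groups overlapped, with a difference of 0.018 on the log2 scale (limma adjusted p = 0.765). After removal of the GC content and length trends it passed, at 0.11 (limma adjusted p = 0.0316). Per length, EPAS1 RNA stood at 2581 normalized counts per kb in shSCR and HIF1A RNA at 3396, while ARNT, the partner of both, stood at 285. ARNT was at 1395 ± 105 and 1332 ± 49.3 (SD over 3 libraries each; limma adjusted p = 0.45). Of the prolyl hydroxylases, EGLN1, the main oxygen sensor, rose from 4448 ± 446 to 5507 ± 349 (limma adjusted p = 0.00626). EGLN3, itself a HIF target, was at 139 ± 24.6 and 107 ± 19.8 and did not pass (log2 fold change -0.37, limma adjusted p = 0.113; 0.04 without shSCR replicate 1 and 0.0421 without shLTBP1 replicate 2).

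Of 10 other HIF target genes among the members 8 were tested: 5 rose, 2 fell, and P4HA2 alone did not pass. Of all tested genes 26.3% rose and 26.8% fell past the same threshold. ADM, which encodes the vasodilator peptide adrenomedullin, had normalized counts of 909, 942 and 960.3 in shSCR against 1542, 1679 and 1501 in shLTBP1. Every shLTBP1 value was higher than every shSCR value (log2 fold change 0.75, standard error 0.063, limma adjusted p = 7.37e-06). NDRG1, a stress-induced gene of differentiating epithelium and the most abundant of this class per length, had values of 22418, 21285 and 22117 in shSCR against 30570.4, 32477 and 31046 in shLTBP1. The groups did not overlap, at a log2 fold change of 0.52 and a limma adjusted p of 5.96e-06. ANKRD37, an ankyrin repeat protein, had values of 80.95, 82.5 and 96.8 in shSCR against 156, 141 and 129 in shLTBP1 and also showed no overlap (log2 fold change 0.71, limma adjusted p = 0.00236). P4HA1, the catalytic subunit of a collagen prolyl hydroxylase, rose from 1219 ± 31.4 to 1366 ± 29.6 (SD over 3 libraries each; limma adjusted p = 0.0281). It lost its call without shSCR replicate 1, shSCR replicate 2 or shLTBP1 replicate 1 (limma adjusted p = 0.0758 to 0.0959), as under the replicate block (limma adjusted p = 0.0533). Its relative P4HA2 was at 1281 ± 49.5 and 1161 ± 76.5 (limma adjusted p = 0.0961). CA9, a carbonic anhydrase widely used as a marker of hypoxia, was barely expressed, at 33.3, 16.7 and 11.1 in shSCR against 34.9, 33.4 and 61.6 in shLTBP1. The highest shSCR value and the lowest shLTBP1 value nearly touch (33.28 and 33.37). CA9 passed (log2 fold change 1.13, standard error 0.41, limma adjusted p = 0.0395) but not without shSCR replicate 2, shSCR replicate 3, shLTBP1 replicate 1 or shLTBP1 replicate 3 (limma adjusted p = 0.0586 to 0.142), nor with no filter on low values, without the trend in moderation or with GC content and length trends removed (limma adjusted p = 0.0552, 0.0753 and 0.0744). The 2 genes that fell were BNIP3L, a receptor for the removal of mitochondria, from 1336 ± 36.6 to 1073 ± 36.6 (SD over 3 libraries each; limma adjusted p = 0.00119), and the histone demethylase KDM3A. KDM3A had values of 2082, 1925 and 2117 in shSCR against 1339, 1259.6 and 1375 in shLTBP1. Its groups did not overlap (log2 fold change -0.62, limma adjusted p = 1.93e-05). Like PDK1 it lies on chromosome 2, and relative to its neighbours it was at -0.086 and did not pass (limma adjusted p = 0.265).

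Besides LDHB and PDK4, 3 members had too little RNA to test. TXNIP, an arrestin-like protein that restrains glucose uptake and is abundant in many cell types, is listed at 0 in all 6 libraries. BNIP3, the close relative of BNIP3L, is listed at 0 in 5 libraries and at 0.626 in shSCR replicate 3. CA12, a carbonic anhydrase of many epithelia, did not exceed 5.14. For comparison, 18 genes that every cell uses, ACTB and TBP among them, were above 0 in all 6 libraries. No fold change is given for these 5 genes, and a listed 0 does not by itself show that a gene was silent.

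Several members lie in stretches of the genome that differed as a whole. The tested genes of chromosome 2 had a median log2 fold change of -0.56, and 4 members lie there. KDM3A, at -0.62, stood beside neighbours with a median of -0.56 (the 25 tested genes on each side). With the neighbours' median subtracted in every library it was at -0.086 (limma adjusted p = 0.265). PDK1, at -0.72, went to -0.24 and likewise did not pass (limma adjusted p = 0.0889). EPAS1 did the opposite: its own log2 fold change was 0.018 while its neighbours had a median of -0.53, and relative to them it was higher, at 0.59 (limma adjusted p = 9.63e-06). HK2, low as it is, went from 1.09 to 1.68 and passed (limma adjusted p = 0.0199). PFKL, on chromosome 21, had neighbours at -0.44 and was at 0.051 relative to them (limma adjusted p = 0.387), whereas PFKM (-0.41) and PFKP (-0.57) were lower than their neighbours too (limma adjusted p = 0.000205 and 1.11e-05). PGK1, on chromosome X, reversed from -0.13 to 0.15 (limma adjusted p = 0.0209). HIF1A was at -0.13 and CA9 at 0.72, and neither passed (limma adjusted p = 0.0735 and 0.173). SLC2A1 (1.12), SLC16A3 (0.81), PFKFB3 (0.62), ADM (0.74) and LDHA (-0.43) kept both direction and call. P4HA1 lost its call (limma adjusted p = 0.11), and PKM, at -0.13, and ARNT, at -0.199, passed as lower (limma adjusted p = 0.0285 and 0.0371). Relative to neighbours, 11 members were higher and 13 lower, and of the enzymes from glucose to lactate 3 were higher and 10 lower. In that fit 6220 of all 12740 tested genes passed, 49.3% of them as higher. The copy number of these stretches was not measured here.

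**Figure D3:**
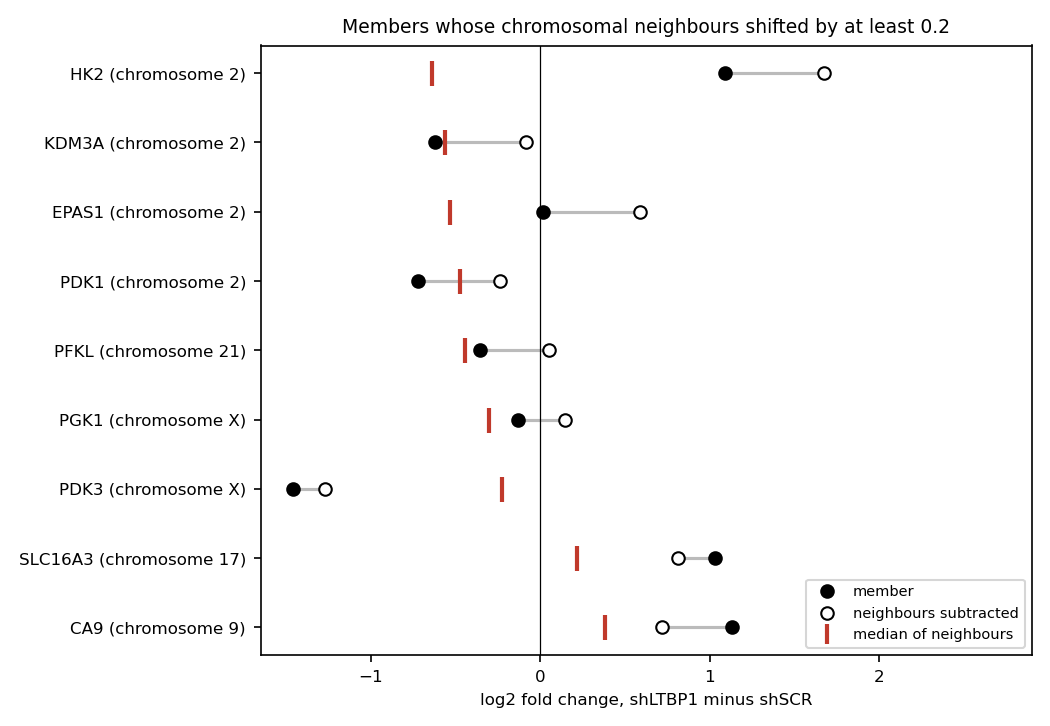
Log2 fold change (shLTBP1 minus shSCR, horizontal axis) of the 9 tested genes whose neighbours' median was at least 0.2 from 0, as measured (filled circles) and with the neighbours' median subtracted (open circles); red ticks mark the neighbours' median. KDM3A, PDK1 and PFKL move toward 0, and EPAS1 and HK2 move away from it.

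Within gene families, the division of RNA between relatives shifted most for the transporters. Shares were computed in each library from normalized counts divided by the length of the principal transcript (GENCODE release 29) over 9 families, with exact two-sided permutation tests that cannot go below p = 0.1. SLC2A1 supplied 55.4% ± 1.64 of SLC2A1 plus SLC2A3 in shSCR and 72.98% ± 2.52 in shLTBP1 (SD, n = 3 each; exact permutation p = 0.1, adjusted over the families 0.129). SLC16A3 supplied 22.9% ± 1.19 of SLC16A1 plus SLC16A3 in shSCR and 38.1% ± 1.63 in shLTBP1 (exact permutation p = 0.1). With the median length of all basic transcripts in place of the principal one, a choice made after seeing the data, SLC16A3 went from 39.7% to 57.7%. In shSCR SLC16A1 was the larger with either length. Which of the pair is the larger in shLTBP1 depends on the length used, while the direction of the shift does not. PFKFB3 went from 80.8% ± 1.51 to 85.9% ± 1.69 of PFKFB3 plus PFKFB4 (exact permutation p = 0.1). The 3 phosphofructokinase genes kept close to their proportions: PFKL supplied 44.7% ± 0.587 and 46.2% ± 0.662 (exact permutation p = 0.1), PFKP 38.9% ± 0.548 and 37.4% ± 1.295, and PFKM 16.4% ± 0.572 and 16.4% ± 1.84. In 4 other sums 1 gene supplied nearly everything in both groups: HK1 99.95% and 99.9% of HK1 plus HK2, ALDOA 99.9% and 99.7% of ALDOA plus ALDOC, ENO1 99.6% and 99.5% of ENO1 plus ENO2, and LDHA 99.996% and 99.98% of LDHA plus LDHB. Of PDK1, PDK3 and PDK4 summed, PDK1 supplied 75.3% ± 5.02 and 84.1% ± 3.71 (exact permutation p = 0.2), or 93.3% and 96.03% with the median length. That sum leaves out PDK2, which is no member and stood above PDK1 per length: PDK2 was at 141 and 182 normalized counts per kb in shSCR and shLTBP1, and PDK1 at 73.2 and 44.4. The order rests on the length taken for PDK1, 14193 bases. Undivided, PDK1 was above PDK2 in shSCR, at 1039 against 485 normalized counts. In shLTBP1 they were at 630 and 624. The share is therefore no measure of PDK1 among all the kinases.

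**Figure D4:**
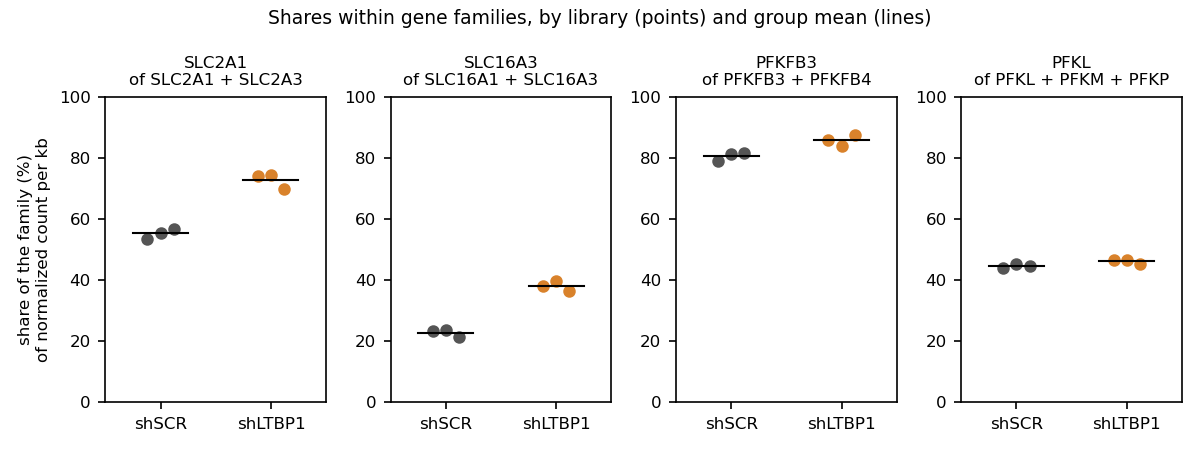
Share of the family's normalized count per kb (vertical axes, in percent) supplied by SLC2A1, SLC16A3, PFKFB3 and PFKL in each library; points are the 3 shSCR (grey) and 3 shLTBP1 (orange) libraries and lines their means. The first 3 shares are higher in all shLTBP1 libraries, and that of PFKL differs by 1.59 percentage points.

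Per length, the order of the members was much the same in both groups. GAPDH, ENO1, PKM and ALDOA led in shSCR, at 56546, 48871, 38533 and 37789 normalized counts per kb, and in shLTBP1, at 48803, 42157, 36431 and 34906. SLC2A1 held rank 5 in both. Its level per kb, 13394 in shSCR, was near those of TPI1 (12672) and LDHA (12368), and in shLTBP1, at 30100.3, it was over those of TPI1 (11099) and LDHA (9158) and under that of ALDOA. All 17 enzymes summed to 1.64% ± 0.0144 of the normalized counts in shSCR and 1.46% ± 0.0222 in shLTBP1 (SD, n = 3 each).

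Genes of the wider pathways were found on both sides as well. Of 57 other genes of glucose transport, glycolysis and pyruvate use, 34 were tested. Rises and falls were equal in number, 8 each, 18 genes did not pass, and the median of the log2 fold changes was -0.13. The share that passed, 47.1% (23.5% in each direction), was below the 53.1% of all tested genes. The largest rises were in the transporters SLC2A6 (0.65) and SLC2A8 (0.45), in PDK2 (0.36), in the mitochondrial carboxykinase PCK2 (0.35) and in the ADP-dependent glucokinase ADPGK (0.28). The largest falls were in PDP1 (-1.06), in TIGAR (-0.97), a phosphatase that lowers the activator of phosphofructokinase, in the glucose-responsive transcription factor MLXIP (-0.47), in the phosphoglucomutase PGM2 (-0.37) and in PFKFB2 (-0.28). Relative to neighbouring genes PCK2 was at 0.18 and PFKFB2 at -0.14, and neither passed (limma adjusted p = 0.063 and 0.0845), while the other 8 kept their calls. BSG, the chaperone of both lactate transporters, was at 8820.2 ± 156 and 8854 ± 435 (SD over 3 libraries each; limma adjusted p = 0.941); it is named after its values were seen. ARRDC4, which like TXNIP answers to glucose, did not exceed 2.02.

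Of 52 other genes of the hypoxia response and the HIF pathway 42 were tested. Of these 13 rose and 14 fell while 15 did not pass, around a median of -0.038. That is 30.95% higher and 33.3% lower, where 26.3% and 26.8% of all tested genes passed. TMEM45A had the largest rise, with normalized counts of 179.6, 182 and 178 in shSCR against 803, 875 and 797 in shLTBP1 (log2 fold change 2.19, limma adjusted p = 3.94e-08). The heme oxygenase HMOX1 (1.34), the transferrin receptor TFRC (0.67), RRAGD (0.61) and PPFIA4 (0.56) followed. PPFIA4 was low, at 30.7 to 57.3, and passed narrowly (limma adjusted p = 0.0493). The transferrin receptor gene lies in a part of chromosome 3 where neighbours were higher, and was at 0.16 relative to them. VEGFA, the angiogenic growth factor and a classical HIF target, went the other way, from 6664 ± 245 to 3401 ± 133 (SD, n = 3 each; log2 fold change -0.97, limma adjusted p = 3.24e-07). The mitochondrial adenylate kinase AK4 (-1.44), RNASE4 (-1.26), INSIG2 (-1.24) and the lysyl oxidase LOXL2 (-1.19) fell further. RNASE4 (19.9 to 73.3) and LOXL2 (5.78 to 27.97, limma adjusted p = 0.0285) were low. INSIG2 lies on chromosome 2 and was at -0.58 relative to its neighbours. Known HIF targets were found on both sides: SLC2A1, ADM and ANKRD37 were higher while LDHA, PDK1, AK4 and VEGFA were lower. Relative to neighbouring genes PDK1 was at -0.24 and did not pass (limma adjusted p = 0.0889), while the others kept their calls.

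**Figure D5:**
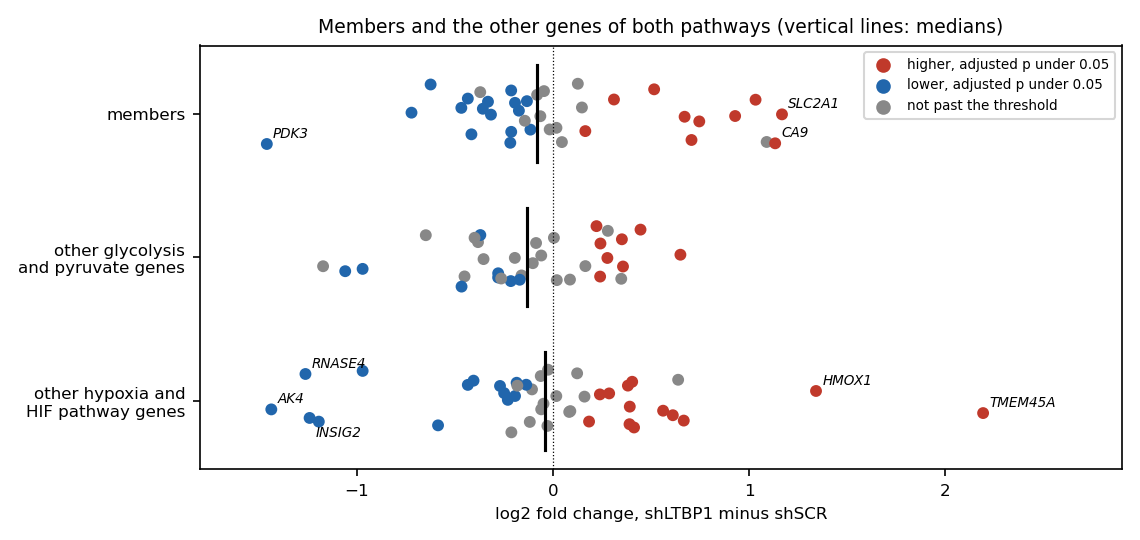
Log2 fold change (shLTBP1 minus shSCR, horizontal axis) of the tested genes among the 42 members (37 genes), the other glycolysis and pyruvate genes (34) and the other hypoxia and HIF pathway genes (42); vertical offsets within a row only spread the points, and vertical lines are medians. Red points are higher and blue points lower at a limma adjusted p under 0.05, grey points did not pass, and all 3 medians lie between -0.13 and -0.038.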

How the data were processed

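Total RNA of MKN28 cells was made into 3 shSCR and 3 shLTBP1 libraries, grouped and numbered by title, with a directional kit, per the labels' protocols. The submitters' processing notes list STAR 2.7.3a, RSEM 1.3.1, FastQC 0.10.1 and DESeq2, and the build hg38. Sources used here do not give the annotation, the filters or the strand setting used in counting. Reads of overlapping genes, antisense genes and near-identical copies are therefore uncertain. PFKM, TPI1, PGK1, SLC16A3, CA9, BNIP3L, P4HA2 and ANKRD37 overlap a coding gene on the other strand. GPI, PFKFB4, ALDOA, ALDOC, PGK1, ENO2, LDHB and EGLN3 overlap a coding gene on the same strand. Each deposited value is a signal for 1 gene: normalized read counts by the name the authors gave the table. They are fractional, so whole reads and the sequenced depth are unknown and no count test was run; low values carry the largest counting error.

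The tests were run in R 4.3.3 with limma 3.58.1, on log2(value + 1) of the 12789 genes with a mean of at least 10. Group was the only term, variances were moderated with a mean trend, and Benjamini-Hochberg adjustment was used at 0.05. The fit was also run on simulated data in which far fewer genes changed than passed here. That run gives no error rate for the calls reported here. The pseudocount makes fold changes of low genes smaller. Gene positions and transcript lengths are those of GENCODE release 29 (GRCh38, the same assembly as hg38), and promoter sequences are from RefSeq (GRCh38.p14). All 42 members are named; values in every library are given for those past the threshold with an absolute log2 fold change of at least 0.5 and no overlap, and for SLC2A1, HIF1A, EPAS1, CA9, LDHA, GAPDH and TXNIP; SLC2A3, HK2 and TMEM45A were added after their values were seen. From each of the other lists, the 5 largest rises and 5 largest falls past the threshold are named, and BSG and ARRDC4 were added later. The members and lists were chosen with earlier results of these data known. The alternatives are 2 other pseudocounts, 2 other filters, upper quartile scaling, quantile normalization, robust moderation, moderation with no trend, a block for the replicate number, leaving out each library, subtracting the median of the 25 tested genes on each side, and removing spline trends of GC content and length.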

Additional observations from a re-analysis of the deposited data

How the results depend on the processing

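Of the 26 members that passed, 16 kept direction and call under all 17 alternatives of the fit (8 higher, 8 lower), SLC2A1, SLC16A3, PFKFB3, ADM, LDHA and GAPDH among them. The matching share of all genes that passed is not given here, so this count does not compare the members with other genes. Over all tested genes the number that passed ran from 5828 to 6924 under the alternatives, against 6788. The counts stayed within 1.5 times, members at 8 to 11 higher and 13 to 17 lower, with 1 exception: the enzymes from glucose to lactate called higher were 1, against 3 with the neighbours' median subtracted (ALDOC, HK2 and PGK1) and 1 to 2 over the left-out libraries. Subtracting the neighbours' median reversed PGK1 (0.15), PFKL (0.051) and SLC16A1 (0.12). SLC16A1, which did not pass, also turned to 0.0027 with upper quartile scaling, 0.018 with quantile normalization, 0.024 without shSCR replicate 3 (the left-out libraries gave -0.045 to 0.024) and 0.048 with GC content and length trends removed, which turned ARNT to 0.041. HK1 was at 0.0031 with quantile normalization and EPAS1 at -0.015 without shLTBP1 replicate 1 (left-out libraries up to 0.048). Beyond the construction of each alternative, the cause was not tested. Without shSCR replicate 3, the library with haemoglobin RNA, 9 members were higher and 14 lower, and 5904 of all 12786 tested genes passed. CA9, PGK1 and ALDOA lost their calls.

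The titles number the libraries 1 to 3 in both groups, but same-numbered libraries did not deviate together (correlations -0.00925, 0.0584 and -0.000740 across genes), so the numbers were not taken as pairs. With the replicate block 9 members were higher and 15 lower, and over all genes 3347 higher and 3408 lower, against 3362 and 3426. Over the left-out libraries the LTBP1 remainder ran from 5.49% to 6.39%, the shift of the SLC2A1 share from 16.7 to 19.00 percentage points and that of the SLC16A1 share from -15.99 to -14.4.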
